A study of Mus musculus with 8 samples.

Results

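Cytosolic ribosomal protein genes were followed in the inflamed mouse colon. Members were all genes whose annotated symbol has the form Rpl, Rps or Rplp, a number and at most 1 letter a, l or x, measured by a probe set annotated to exactly 1 gene, with the probe set of the highest mean signal taken where a gene had several. This gave 38 of the 30675 genes measured. RefSeq lists 82 mouse genes with such symbols. Of the 44 that are no members, 37 are named on probe sets that also name other genes, and 7 matched no annotated probe set and were not analysed here. The members include 3 tissue-restricted paralogs (Rpl3l, Rpl10l and Rpl39l), the paralog Rps27l, and Rpl6l and Rps4l, which RefSeq classes as pseudogenes.

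RNA came from the colons of 3 mice injected with naïve T cells and killed with severe inflammation, and of 5 Treg-injected control mice, with 1 Affymetrix array per mouse. All 8 mice were C57BL/6 Rag1-/- animals, which make no mature T or B cells of their own. As Tregs are T cells, the controls too received transferred T cells. Injection was at 10 weeks of age and killing 2 to 4 months later, while the labels give an age of 4 to 5 months. The sources differ on the tissue taken, with the sample protocol naming the distal part and the design text a strip from cecum to rectum.

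Each cytosolic ribosome joins a small subunit, which reads the mRNA, to a large subunit, which forms the peptide bond, and each carries its own set of proteins, most in equal amounts (gene prefixes Rps and Rpl). Their mRNAs are among the most abundant of any cell and begin with a 5′ terminal oligopyrimidine (TOP) tract, through which mTOR signalling controls their translation. Assembly takes place in the nucleolus and needs a separate large group of biogenesis factors, many of which are targets of the transcription factor Myc.

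The start-site sequences of 6 members are shown because the TOP tract is a feature of ribosomal protein genes that the selection rule did not use. Each runs from 20 bases before to 20 bases after the transcription start annotated by RefSeq on GRCm38.p6. Capitals mark the longest run of a C followed by at least 5 bases that are each C or T. The first 2 are the members that rose in inflamed colon, the next 3 are members with no call and a tract, and Rps7 has no call and no tract in this window.
Rps27l, chr9:66946066-66946105, plus strand: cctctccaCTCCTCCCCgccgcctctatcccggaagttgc
Rps9, chr7:3704021-3704060, plus strand: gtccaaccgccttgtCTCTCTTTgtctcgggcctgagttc
Rps18, chr17:33955646-33955685, minus strand: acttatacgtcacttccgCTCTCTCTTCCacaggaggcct
Rpl38, chr11:114668560-114668599, plus strand: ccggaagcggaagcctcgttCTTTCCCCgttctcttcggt
Rps24, chr14:24490658-24490697, plus strand: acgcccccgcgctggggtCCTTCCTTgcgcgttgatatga
Rps7, chr12:28635934-28635973, minus strand: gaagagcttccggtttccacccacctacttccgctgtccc

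RefSeq promoter windows were found for 31 of the 38 members, 39 windows in all, since some genes have several starts. Such a tract lay within 20 bases of the start in 22 of these 39 windows (56.4%), against 29.4% of the 32851 promoter windows of all genes. The heptamer CCGGAAG, bound by factors of the ETS family, was read on both strands over the 300 bases of each window. It was in 35.9% of the member windows and 8.86% of all windows. In related lists described below, it was in 36.0% of biogenesis windows and in 4 of 11 windows (36.4%) of translation factors. The tract lay in 22.1% and 63.6% of these windows, so that neither match is particular to the members. The hexamer CACGTG, its own reverse complement and the site bound by Myc and related factors, was in 7.69% of the member windows and 7.15% of all windows. These matches describe letters only, and annotated starts can be off by several bases. The run was found near the start in at least 1 window of 21 members, with Rps27l and Rps9 among them. A C followed by 4 bases that are each C or T exactly at the annotated start, where a TOP tract begins, was in 5 member windows (12.8%) and 2.51% of all windows, and neither Rps27l nor Rps9 was among those. The Rps27l run lies wholly before the annotated start, and its second window has none.

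Most ribosomal protein genes differed little between severely inflamed and control colon, as did most genes measured. Lower and upper quartiles of the log2 difference, inflamed minus control, were -0.078 and 0.11 for members and -0.099 and 0.089 for all genes. Of the 38 members, 2 rose (Rps27l and Rps9) and 0 fell in limma's test at a Benjamini-Hochberg adjusted p under 0.05, or 5.26% of them, while 13.1% of all genes tested were called. Upward calls made up 8.07% of all genes and downward calls 5.04%. At an unadjusted p under 0.05 there were 10 of the 38 members, 6 higher and 4 lower, a share close to the 28.5% of all genes. Most members gave signals above the middle of the arrays, with 36 of 38 having a group mean above the median of all probe sets. Of the 19598 genes above that median in either group, 19.5% were called, 12% upward and 7.49% downward. These genes were not matched to the members in brightness. In whole tissue, fewer cells of a type and less RNA per cell cannot be told apart.

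The median log2 difference over the members, inflamed minus control, was 0.019, and that over all genes was -0.013. Single members ranged from -0.31 to 0.55, and 22 lay above 0 and 16 below. Their intervals were about as wide as those of other genes, with a median SE of 0.066 for members and 0.068 for all genes. For 36 of 38 members the 95% interval of the difference lay within a 1.5-fold change in either direction, the exceptions being Rps27l, which reached above it, and Rps4l, which reached below, and for all 38 it lay within 2-fold. A member without a call is thus bounded, and is not shown to be equal in the groups. The share of all genes within the same bounds was not counted. In 19 members values repeat exactly between arrays, and the effect of this on the intervals was not tested.

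**Figure D1:**
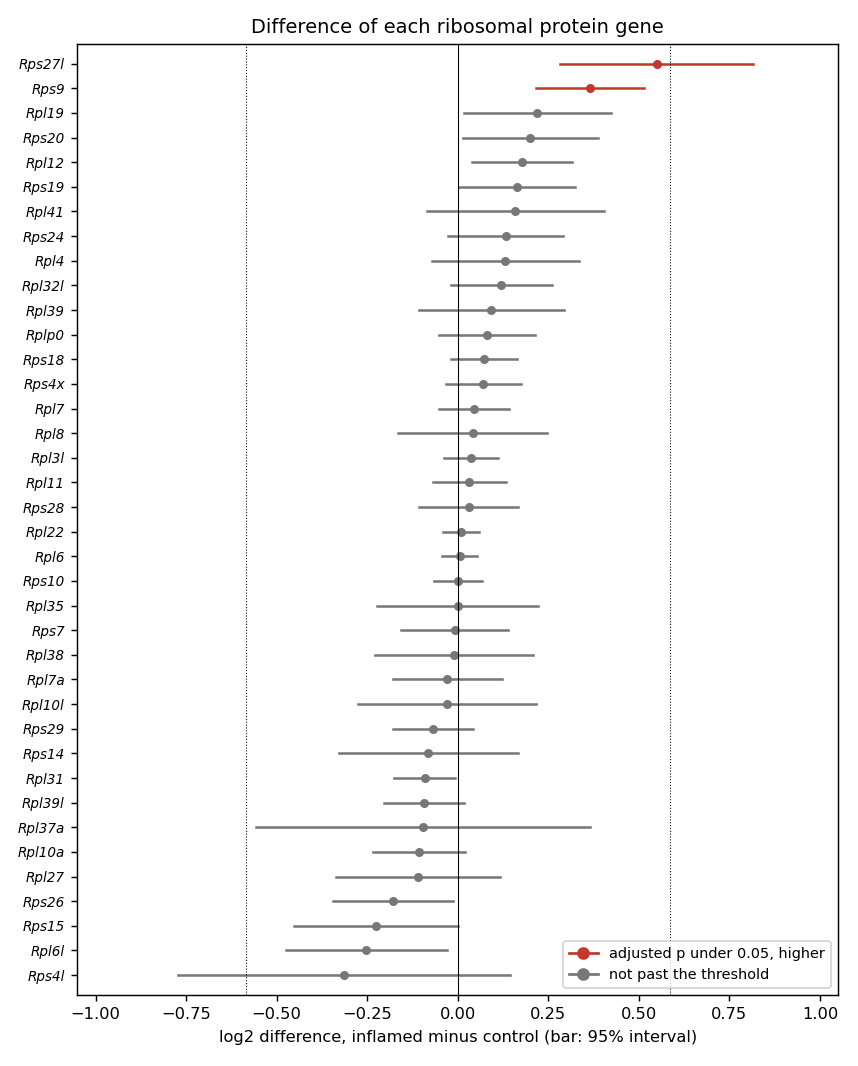
Log2 difference of each of the 38 ribosomal protein genes, inflamed (3 arrays) minus control (5 arrays), with the limma 95% interval as a bar and dotted lines at a 1.5-fold change either way. Rps27l and Rps9, in red at the top, passed the threshold, and the other 36 bars, in grey, cluster around 0.

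Rps27l encodes a paralog of the small-subunit protein of Rps27 and is known as a gene induced by p53 in human and mouse cells. Its log2 signal was 8.53, 8.93 and 8.46 in inflamed colon, against 8.04, 8.14, 8.25, 8.0 and 8.01 in control colon. All 3 inflamed values lay above all 5 control values, with inflamed replicate 2 the highest. The gene rose by 0.55 ± 0.11 (SE), or 1.46-fold, with limma adjusted p = 0.0210. The call ended without control replicate 4 (adjusted p = 0.0539) or control replicate 5 (adjusted p = 0.0545), while the rise stayed between 0.40 and 0.64 when any 1 array was left out.

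Rps9 encodes a core protein of the small subunit that sits near the entry of the mRNA channel. Its signal was 7.73, 7.54 and 7.64 in inflamed colon and 7.22, 7.23, 7.43, 7.21 and 7.26 in control colon. The groups did not overlap, and control replicate 3 was the highest control. The rise was 0.37 ± 0.064, or 1.29-fold, with limma adjusted p = 0.0112, and the call held when any 1 array was left out (adjusted p of 0.00613 to 0.0432). Together with Rpl12, these were the 3 members with all inflamed values above all control values, a pattern found in 12% of all genes. No member had all inflamed values below all controls, against 9.17% of all genes.

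To ask which members moved apart from the rest, the median of the members was subtracted on each array and the fit repeated over all genes. The same 2 genes passed, Rps27l by 0.56 ± 0.14 (adjusted p = 0.0245) and Rps9 by 0.38 ± 0.074 (adjusted p = 0.00772), both upward. In this fit 10.8% of all genes were called, 6.84% upward and 3.93% downward. The next largest departure upward by p was that of Rps20, at 0.22 ± 0.071 (adjusted p = 0.0882).

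**Figure D2:**
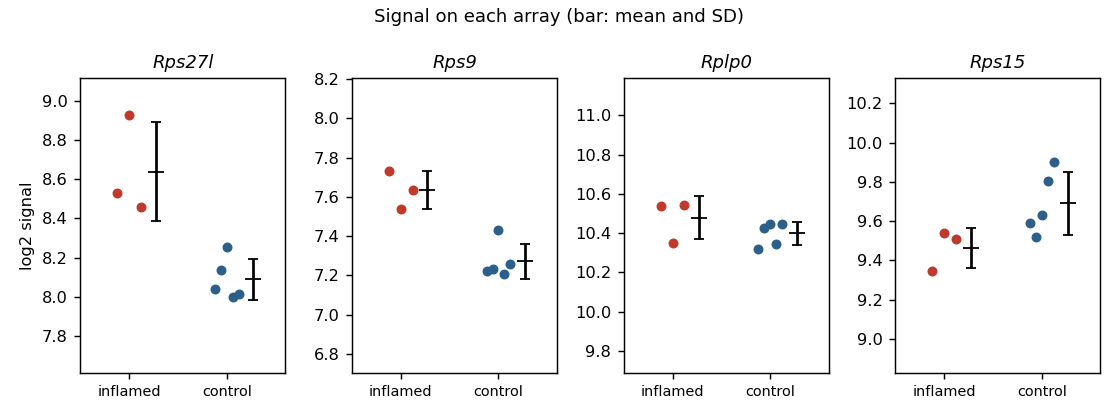
Log2 signal on each array for the members that rose (Rps27l and Rps9) and, for comparison, Rplp0 and Rps15, which did not pass. Points are arrays, with the 3 inflamed on the left and 5 control on the right of each panel, bars give the mean and SD, and every panel spans the same log2 range around its own centre. Inflamed and control points separate for Rps27l and Rps9 and overlap for the other genes.

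Beyond these, the largest differences upward stayed under the threshold. Rpl19, a large-subunit protein near the exit of the peptide tunnel, had 10.62, 10.66 and 10.58 in inflamed colon against 10.35, 10.43, 10.64, 10.35 and 10.23 in controls, a difference of 0.22 ± 0.086 (adjusted p = 0.146). Control replicate 3 lay within the inflamed values, and without it Rpl19 passed (adjusted p = 0.0232). Rps20, of the head of the small subunit, differed by 0.20 ± 0.079 (adjusted p = 0.148), with inflamed replicate 2 inside the control range. Rps19, whose loss causes Diamond-Blackfan anaemia in humans, differed by 0.16 ± 0.068 (adjusted p = 0.165).

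No member fell. Rps4l had 6.00, 6.21 and 6.12 in inflamed colon and 7.03, 6.27, 6.31, 6.11 and 6.39 in controls, a difference of -0.31 ± 0.20 (adjusted p = 0.335), and control replicate 1 stood highest. The pseudogene Rpl6l differed by -0.25 ± 0.095 (adjusted p = 0.130). Rps15 and Rps26, proteins of the decoding region and of the mRNA exit channel, differed by -0.23 ± 0.096 (adjusted p = 0.175) and -0.18 ± 0.071 (adjusted p = 0.148). The next was Rpl27, a large-subunit protein, at -0.11 ± 0.097 (adjusted p = 0.487). Without inflamed replicate 2, Rps26 passed with a difference of -0.26 (adjusted p = 0.0261), as did Rpl31 at -0.13 (adjusted p = 0.0195), so that 2 members were then lower. That count was not set against the share of all genes called without that array.

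By subunit, of the 23 large-subunit members, 13 lay above 0 and 0 were called, with a median difference of 0.0080 and a range from -0.25 to 0.22. Of the 15 small-subunit members, 9 lay above 0 and 2 were called (13.3%, near the 13.1% of all genes), with a median of 0.031 and a range from -0.31 to 0.55. The low ends of the large- and small-subunit ranges are those of the pseudogenes Rpl6l and Rps4l. No test set the subunits against each other.

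The P stalk of the large subunit, which recruits elongation factors, was measured through Rplp0, its core, and Rpl12, at its base. Rplp0 had 10.54, 10.35 and 10.54 in inflamed colon and 10.32, 10.43, 10.45, 10.35 and 10.45 in controls, a difference of 0.080 ± 0.057 (adjusted p = 0.390). The groups overlapped. Rpl12 had 12.13, 12.36 and 12.20 in inflamed colon and 12.01, 12.12, 12.10, 12.07 and 11.97 in controls, a difference of 0.18 ± 0.059 (adjusted p = 0.0957). Its inflamed values all lay above its controls, with a gap far smaller than the spread of the inflamed arrays, and the gene was not called.

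Rpl11 binds 5S rRNA together with the Rpl5 protein, and when free it binds Mdm2, the ubiquitin ligase that degrades p53. Its signal was 7.05, 6.99 and 7.03 in inflamed colon and 6.87, 7.03, 7.03, 7.0 and 7.03 in controls, a difference of 0.032 ± 0.043 (adjusted p = 0.658). The p53 targets Mdm2 and Cdkn1a were read beside Rps27l. They differed by 0.21 ± 0.098 (adjusted p = 0.208) and -0.23 ± 0.10 (adjusted p = 0.192), and neither passed.

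Of the proteins around the exit of the peptide tunnel, 6 of the 9 listed were measured and 0 were called, with a median difference of 0.050. In lists this small, 0 calls cannot be told apart from the 13.1% called over all genes. The values ran from -0.092 ± 0.036 for Rpl31 (adjusted p = 0.149) to the 0.22 of Rpl19. Rpl4, which narrows the tunnel, had 12.39, 12.77 and 12.43 in inflamed colon and 12.44, 12.44, 12.35, 12.33 and 12.42 in controls, so that only inflamed replicate 2 stood above the control range. Rps7, a small-subunit protein, differed by -0.0088 ± 0.063 (adjusted p = 0.948). Of a list of proteins along the mRNA channel and decoding region, which does not hold Rps9, 4 of 8 were measured. Here too 0 were called, against 13.1% of all genes. Their median difference was -0.13, between the -0.23 of Rps15 and the 0.031 of Rps28.

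Members known for roles beyond housekeeping were measured through 4 of the 8 genes listed, of which Rps27l alone was called (25%). Over all genes 13.1% were called, and a list this small cannot be told apart from that share. Rpl22 is needed for the development of alpha-beta T cells in mice. It had 7.76, 7.75 and 7.74 in inflamed colon and 7.73, 7.76, 7.75, 7.75 and 7.72 in controls, a difference of 0.0080 ± 0.021 (adjusted p = 0.834). Rpl38 favours translation of Hox mRNAs in the mouse embryo, and differed by -0.010 ± 0.093 (adjusted p = 0.958), a sign that turned under median centring of the arrays. Rpl13a, Rps3 and Rps6 are named on probe sets that also name other genes, which were read as a group only, and Rps27a was not analysed here.

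None of the 3 tissue-restricted paralogs was called, against 13.1% of all genes. Rpl3l, of heart and skeletal muscle, had 4.54, 4.54 and 4.55 in inflamed colon and 4.44 to 4.54 in controls. Rpl39l, of the testis, had 4.52, 4.62 and 4.62 in inflamed colon and 4.62 to 4.78 in controls, differing by -0.093 ± 0.047 (adjusted p = 0.243). Both lay under the median of all probe sets, 4.88, the limit under which a gene was taken as dim. Rpl10l, which takes over from Rpl10 in male meiosis in mice, differed by -0.030 ± 0.10 (adjusted p = 0.879), and its sign changed with the scaling.

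**Figure D3:**
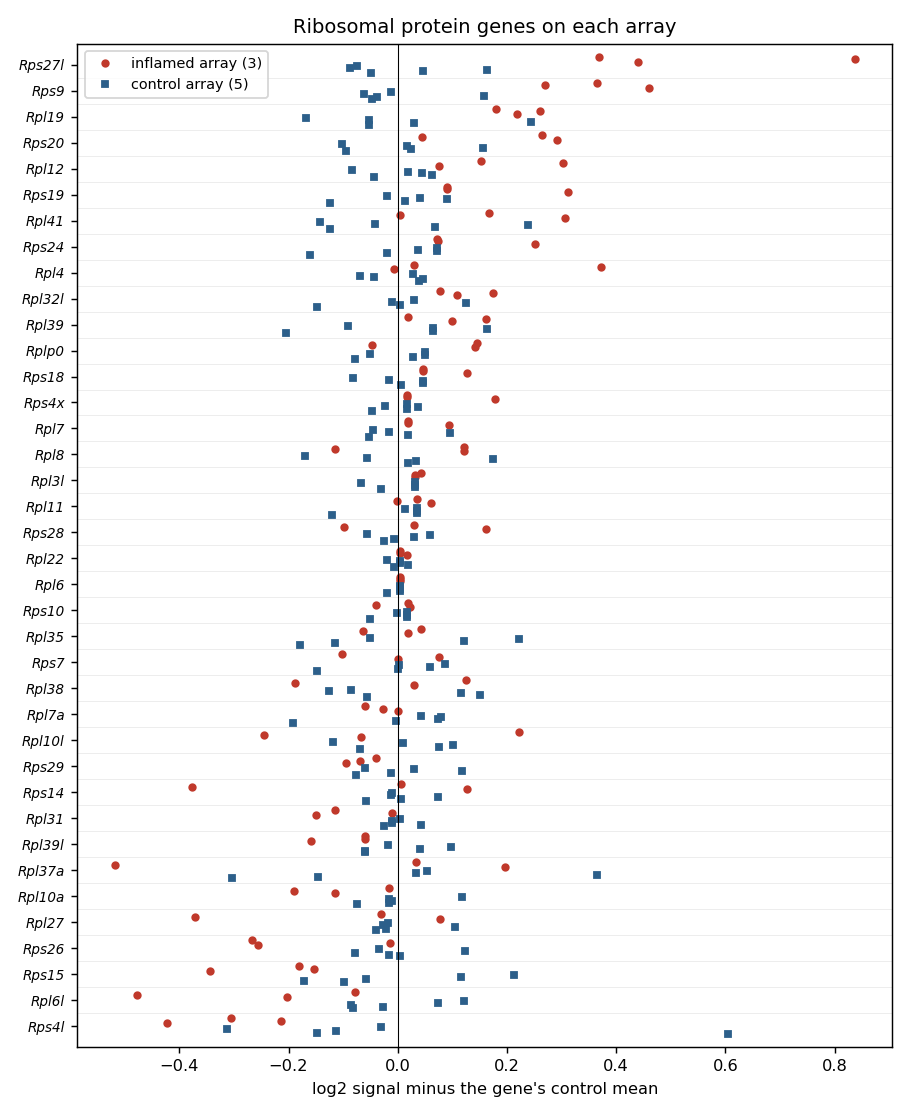
Log2 signal of each of the 38 members on each array, minus the gene's own control mean, with members ordered by their difference. Red circles are the 3 inflamed arrays and blue squares the 5 control arrays. Red and blue mix on most lines and separate for Rps27l, Rps9 and Rpl12. A single red point from inflamed replicate 2 stands far out in some members, among them Rps27l, Rps14, Rpl37a, Rpl27 and Rpl4.

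Array by array, the shifts of the members overlapped between the groups. The median deviation of the members from their control means was 0.068, -0.0063 and 0.029 on inflamed replicates 1, 2 and 3, and -0.058, 0.015, 0.065, 0.00075 and -0.018 on controls 1 to 5. Inflamed replicate 1 held the highest value of 11 members, the most of any array, and the lowest of 5. Inflamed replicate 2 held the highest value of 5 members and the lowest of 8, including that of Rpl37a at 8.81, against 9.53 and 9.36 on inflamed replicates 1 and 3 and 9.03 to 9.69 in controls. Control replicate 1 held the lowest value of 13 members. Over all transcript clusters, Pearson's r was 0.986 to 0.995 between inflamed arrays, 0.994 to 0.997 between controls, and 0.980 to 0.986 between inflamed and control arrays. High Xist on inflamed replicate 3 and controls 3 to 5, and Y-linked signal on the other arrays, placed both sexes in both groups. Without inflamed replicate 2 the median difference of the members was 0.057, with 2 higher and 2 lower. Calls over all genes also changed with the array left out, from 2507 to 4562, and these member counts were not set against them.

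Ribosomal protein genes have many processed copies scattered through mammalian genomes. The identifier of a probe set carries a chromosome, which equalled that of the gene in RefSeq for 30528 of 30586 genes where both were known. Among the 58 that differed were 6 of the 38 members: Rpl12, Rpl27, Rpl31, Rpl35, Rpl41 and Rpl7a. For 4 of these a second probe set lies on the gene's own chromosome, and its inflamed minus control difference was 0.019 ± 0.060 for Rpl27, -0.043 ± 0.11 for Rpl35, 0.12 ± 0.062 for Rpl41 and -0.038 ± 0.085 for Rpl7a. The brighter probe sets gave -0.11, -0.00033, 0.16 and -0.028 for the same genes. Rps26, read on its own chromosome, also has probe sets on chromosomes 8 and 12. They gave -0.23 ± 0.066 and, on a dim probe set, 0.019 ± 0.061. In limma's fit over all transcript clusters, the adjusted p was 0.0821 for the one on chromosome 8, against 0.193 for the probe set used. For Rpl12 and Rpl31 no other probe set of a single gene was found. With members read only on their own chromosome, 36 remained, 2 were higher and 0 lower, and the median difference was 0.025. How much signal each probe set takes from other copies was not tested.

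Probe sets that were not used for the members were read among all transcript clusters. Of 52 probe sets that name a ribosomal protein gene of the rule beside other genes, 2 were higher and 2 lower (7.69%), and 36.5% were at an unadjusted p under 0.05, with a median difference of 0.059. Of 220 annotated ribosomal protein pseudogenes, 1 was higher and 1 lower (0.909%), and 30% were at an unadjusted p under 0.05, with a median of 0.018. Among all 65956 transcript clusters of that fit, 7.53% were called, 4.39% upward and 3.13% downward, 22.5% were at an unadjusted p under 0.05, and the median difference was -0.023. Deposited values also repeat exactly between arrays. Of the members, 19 of 38 held the same value on at least 2 arrays, as did 59.6% of all genes, and Rpl6 held 7.31 on 7 of the 8.

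Core ribosomal proteins named outside the rule were not called either. Rpsa, the laminin-binding small-subunit protein, had 10.55, 10.33 and 10.49 in inflamed colon and 10.13, 10.28, 10.37, 10.15 and 9.95 in controls, a difference of 0.28 ± 0.097 (adjusted p = 0.103). Rps3a1 and the ubiquitin-like fusion gene Fau differed by 0.052 ± 0.089 (adjusted p = 0.731) and 0.066 ± 0.15 (adjusted p = 0.810). The paralogs Rpl7l1 and Rpl22l1 differed by 0.22 ± 0.067 (adjusted p = 0.0710) and 0.12 ± 0.067 (adjusted p = 0.268). Rpl7l1, which acts in ribosome assembly, had all inflamed values above all controls, and passed after median centring or with the sex pattern as a block.

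Genes that build ribosomes, by contrast, were often higher in inflamed colon. Of 84 measured biogenesis genes (of 87 listed), 41 rose and 0 fell. The upward share was 48.8%, against 8.07% of all genes and 12% of genes above the median of all probe sets. The median difference of the list was 0.24 and 78 of the 84 lay above 0, while 59 were at an unadjusted p under 0.05. The largest rise was that of Nol10, a nucleolar factor of small-subunit assembly, with 7.22, 7.21 and 6.93 in inflamed colon and 6.55, 6.27, 6.22, 6.05 and 6.24 in controls (0.85 ± 0.12, limma adjusted p = 0.00425). Wdr43, also of small-subunit assembly, rose by 0.75 ± 0.087 (adjusted p = 0.00229). Nop58, a core protein of the particles that methylate rRNA, rose by 0.73 ± 0.11 (adjusted p = 0.00669). The 3 genes had every inflamed value above every control. The upward count was 20 without inflamed replicate 1, and 25 to 26 without control replicate 2, 4 or 5. The list was not tested against the members.

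Promoter windows of 73 of the 87 listed biogenesis genes held CACGTG in 22.1% of cases, against 7.69% of member windows and 7.15% of all windows. In the translation factors described next it was in 3 of 11 windows (27.3%). Of the biogenesis genes named above, Wdr43 alone holds the hexamer, and it is shown in capitals as an example of the letters counted. Whether any factor binds there was not tested.
Wdr43, chr17:71616220-71616249, plus strand: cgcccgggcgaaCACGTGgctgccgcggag

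Translation genes whose mRNAs carry a TOP tract, as those of ribosomal proteins do, had a median between those of both lists. Beside elongation and initiation factors this list holds Pabpc1, Tpt1, Naca and Btf3. It is called translation factors, or elongation and initiation genes, for short elsewhere. Of 15 measured, 1 rose (6.67%, against 8.07% of all genes called upward) and 0 fell. Their median difference was 0.11, and 13 lay above 0. Eef1g, a subunit of elongation factor 1, rose by 0.25 ± 0.057 (adjusted p = 0.0310), a call that ended without any 1 of 6 arrays and under quantile normalization or a floor on low values. The largest differences were those of the initiation factor Eif3l, at 0.36 ± 0.12 (adjusted p = 0.0905), and of Eef1b2, at 0.26 ± 0.13 (adjusted p = 0.248).

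**Figure D4:**
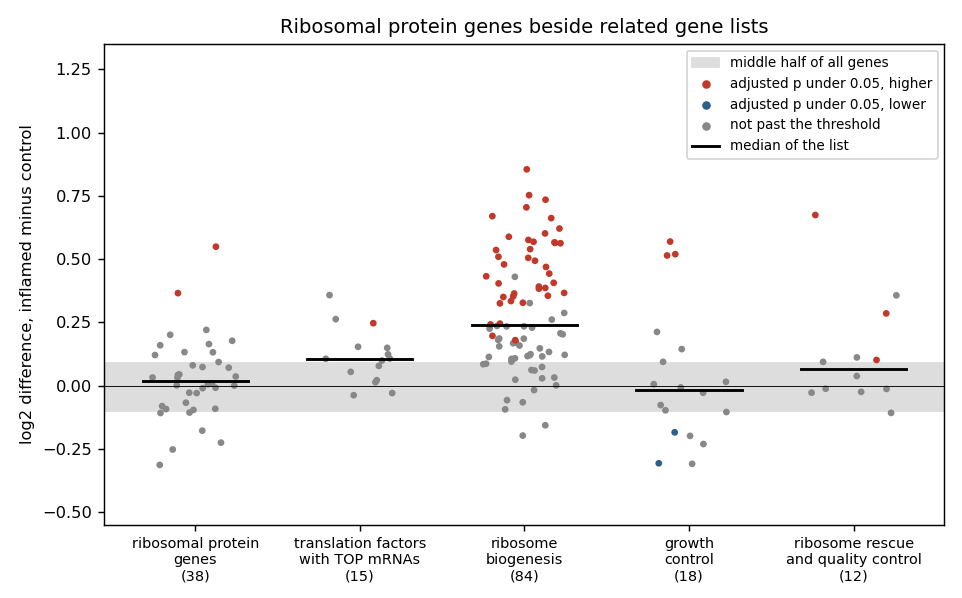
Log2 difference, inflamed minus control, of each measured gene in 5 lists, with the number of genes under each name, black lines at list medians and a grey band between the lower and upper quartiles of all genes. Calls upward are red and calls downward blue. The ribosomal protein genes centre on 0.019, the biogenesis genes on 0.24 with 41 red points.

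Among genes that control growth and the making of ribosomes, 3 rose (16.7%) and 2 fell of 18 measured, with a median difference of -0.018. Over all genes, 8.07% were called upward and 5.04% downward. Eif4e, the cap-binding protein, rose by 0.57 ± 0.083 (adjusted p = 0.00537). Myc had 8.33, 7.85 and 8.06 in inflamed colon and 7.59, 7.60, 7.56, 7.45 and 7.61 in controls, a rise of 0.52 ± 0.10 (adjusted p = 0.0161) with groups that did not overlap. The genes of the proteins that inhibit Eif4e moved in opposite directions, with Eif4ebp1 rising by 0.51 ± 0.10 (adjusted p = 0.0181), while Eif4ebp2 fell by 0.31 ± 0.056 (adjusted p = 0.0134). Tsc2, an inhibitor of mTOR signalling, fell by 0.19 ± 0.046 (adjusted p = 0.0407). Mtor itself differed by 0.0053 ± 0.025 (adjusted p = 0.915). Max and Mlst8, of the same list, had all inflamed values below all controls but were not called. They differed by -0.31 ± 0.12 (adjusted p = 0.135) and -0.20 ± 0.078 (adjusted p = 0.144). In the other direction, 4 of the 18 had all inflamed values above all controls. Without inflamed replicate 1 the list held 3 calls, all upward, so that neither fall passed, and 1 downward call was left under median centring, a floor or trended variances.

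Of the genes of ribosome rescue and ribosome-associated quality control, 3 of 12 measured rose (25%, against 8.07% of all genes called upward) and 0 fell. Their median difference was 0.065. Abce1, which splits ribosomes after termination, rose by 0.67 ± 0.16 (adjusted p = 0.0328). Hbs1l, the partner of Pelo in rescue, rose by 0.29 ± 0.057 (adjusted p = 0.0185), and G3bp2, a stress-granule protein, rose by 0.10 ± 0.023 (adjusted p = 0.0271).

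Markers of several cell types moved with the same contrast. Of the markers of dividing cells 5 of 7 rose and 0 fell, with array means of 8.34 to 8.44 in inflamed and 7.51 to 8.0 in control colon. All 9 T cell and all 9 macrophage markers rose, with array means of 6.45 to 7.16 against 5.22 to 5.33 and of 8.39 to 8.63 against 6.82 to 7.04. Of neutrophil markers 4 of 8 rose and 0 fell (6.91 to 8.73 against 5.07 to 5.33). Of smooth muscle markers 6 of 8 fell (9.68 to 9.75 against 10.13 to 10.57), and of epithelial markers 4 fell and 1 rose of 11 (10.08 to 10.41 against 10.51 to 10.65). No fibroblast (5) or endothelial (5) marker was called, and 1 of 5 neuron and glia markers and 1 of 6 B and plasma cell markers fell. The part of these changes in the rises of Rps27l, Rps9 and the biogenesis genes, and in the small differences of the other members, was not tested.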

How the data were processed

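Per the submitters' processing notes, the authors used Affymetrix Expression Console and RMA. The deposited table holds log2 intensity values, a scale read here from their range. Versions, array settings and build were not given in the sources used here. Array medians ran from 4.81 to 4.91. The number of arrays limits the precision. The labels call the replicates biological.

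Of 32750 annotated probe sets, 30604 had 1 symbol, 621 several symbols of 1 gene and 1525 several genes. The last were left unnamed. The rest covered 30675 genes, 1122 of them renamed through RefSeq (GRCm38.p6), and 435 had several probe sets. Over all genes, lmFit and eBayes of limma 3.58.1 (R 4.3.3) compared the groups without covariates and with Benjamini-Hochberg adjustment. "Rose" and "fell" mean an adjusted p under 0.05. Values after ± are limma standard errors, with n = 3 inflamed and 5 control arrays throughout. The fit was tested on simulated data. Signals of different probe sets are not comparable as levels.

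The members and 22 lists were chosen with earlier results of these data known. Named genes followed a fixed rule: the 5 largest differences each way, the members of the small role lists, the brightest and dimmest members, and up to 3 leading genes of each related list. Others were chosen after their values were seen, among them Rpl6, Rpl37a, Rps14, Mdm2, Cdkn1a, Mtor, Max, Mlst8, Eif4ebp2 and Tsc2. Alternatives covered scaling, a floor, dim genes, probe set choice, variance models, blocks and each array left out. Promoter sequences are from RefSeq.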

Additional observations from a re-analysis of the deposited data

Results flagged for a closer look

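In 5 of 43 genes checked, 1 control value lay farther from the other 4 than Dixon's 95% limit of 0.71 allows for 5 samples. For values without exact repeats, chance passes that limit in about 1 group in 20. Rpl11, Rps10 and Rpl6 held exact repeats among their controls, so that this rate need not apply to them. Rps9 was at 7.43 on control replicate 3, against 7.21 to 7.26 on the other controls and 7.54 to 7.73 in inflamed colon, and without that array its rise was 0.40 (adjusted p = 0.00613). Rpl27 was also high on control replicate 3, at 10.81 against 10.67 to 10.69. Control replicate 1 was low for the other 3: Rpl11 was at 6.87 against 7.0 to 7.03, Rps10 at 7.31 against 7.36 to 7.38, and Rpl6 at 7.29 where every other control held 7.31. Control replicate 1 also held the lowest value of 13 of the 38 members.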

How the results depend on the processing

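The upward count of 2 members, Rps27l and Rps9, was the same under median centring, quantile normalization, a floor on low values, dim genes left out, the mean over probe sets, updated symbols, trended and robust variances and the sex pattern as a block, and with probe sets on the gene's own chromosome or every member probe set, both chosen after seeing the data. No member changed by at least 2-fold (0 calls). Array weights gave 3 higher and 2 lower members (Rpl31 and Rps26), with 4 apart from the member median. These counts are given without the share of all genes called under array weights, so a general shift in calls is not separated from them. Elongation and initiation genes called, 1 as reported, numbered 2 under median centring, 0 under quantile normalization, 0 with the floor and 2 with array weights. The cause of these shifts was not tested.

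With 1 array left out, the genes called ran from 2507 to 4562 (4023 as reported), members higher from 1 to 3, members lower from 0 to 2, members apart from the member median from 1 to 3, biogenesis genes higher from 20 to 39, growth control genes from 3 to 5, and elongation and initiation genes from 0 to 1. Over the other settings except the replicate block, biogenesis genes higher ran from 30 to 52.

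The labels state no pairing of mice across the groups. Deviations of same-numbered arrays correlated at -0.285, -0.053 and 0.069, and those of differently numbered arrays at -0.218 to 0.347. With 3 inflamed arrays, these values cannot show whether mice were paired. With the replicate number as a block limma called 0 genes, 0 members, 0 members apart from the member median, 0 biogenesis, 0 growth control and 0 elongation and initiation genes. Rps27l was at 0.49 (adjusted p = 0.264) and Rps9 at 0.34 (adjusted p = 0.212), and controls 4 and 5, which share no number with an inflamed mouse, add nothing to the contrast there.

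The sign turned for 6 uncalled genes with differences near 0. Rpl38 was at 0.026 under median centring and 0.046 with array weights, and ran from -0.079 to 0.078 with 1 array left out. Rpl10l was at 0.0069 under median centring, 0.0033 under quantile normalization, 0.0046 with array weights and 0.0050 with the sex block, and ran from -0.16 to 0.077. Rpl27 was at 0.014 with array weights and 0.019 on its own chromosome, and ran from -0.20 to 0.023. Rpl22 was at -0.0093 under quantile normalization. Fau was at -0.11 with the replicate block and ran from -0.022 to 0.15, and Rps3a1 ran from -0.013 to 0.11. With a floor, Rpl3l and Rpl39l gave no value. The median interval of members without a call reached 0.155 log2 to either side, and single genes were measured more or less tightly than this.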
